A study of Mus musculus with 6 samples.

Results

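The genes described here encode subunits of the mitochondrial respiratory chain, the 4 electron transport complexes and the ATP synthase that is usually counted as complex V. They were chosen by name alone, as every gene whose symbol begins with Nduf followed by a subunit letter and number, is Sdha to Sdhd, or begins with Uqcr, with Cox4 to Cox8 or with Atp5 and a further letter. Of the 16523 genes with a single symbol in the annotation of the array, 75 met this rule. Complex I had 33 of them, complex II 4, complex III 6, complex IV 16 and complex V 16. Among the names, 3 stand for genes that are not subunits of the chain under their current names. *Cox4nb* is now *Emc8*, which encodes a part of the membrane protein complex of the endoplasmic reticulum, while *Atp5s* and *Atp5sl* are now *Dmac2l* and *Dmac2*. They were kept in all counts because the rule takes them. *Ndufa4* was counted with complex I by its name, although its protein is now placed in complex IV. Of 84 protein-coding RefSeq symbols that fit the rule, 72 were measured with a probe set of their own, and the other 12 were not analysed here.

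Expression had been profiled in the ETV2::GFP+FLK1+CD41- population of mouse embryos, which was sorted at E7.5 or E8.5 in 3 biological replicates per stage with 50 cells in each. The embryos of both stages came from ICR females mated with males carrying the ETV2::GFP transgene, in which GFP marks cells that transcribe *Etv2*, a transcription factor of blood and endothelial specification. FLK1 is the VEGF receptor encoded by *Kdr*, and leaving out CD41+ cells leaves out those already committed to blood. The SuperAmp kit served to amplify the RNA, and 1 Affymetrix Mouse Exon 1.0 ST array was hybridized per replicate, 6 in all. The labels give no dissected region, whereas the paper places the E7.5 cells in extra-embryonic tissue and the E8.5 cells in the embryo proper, so that stage and site cannot be told apart. Whether each replicate had a litter of its own is not stated in the sources used here, and the p-values below therefore measure the spread between these samples only. In such bulk samples, fewer cells of a type and less RNA per cell cannot be told apart.

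The respiratory chain moves electrons from NADH, through complex I, or from succinate, through complex II, to coenzyme Q, then through complex III to cytochrome c and through complex IV to oxygen. Complexes I, III and IV pump protons across the inner mitochondrial membrane as they do so, and complex V makes ATP as the protons flow back. A few subunits carry the redox centres or the catalytic sites, most others are accessory subunits, and several of complex IV come in forms used in particular tissues such as heart and skeletal muscle. Some core subunits are encoded by mitochondrial DNA, and none of those had a probe set with a single symbol here.

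Each gene was given, on each array, the median of its probe sets, which are short groups of probes that mostly lie within 1 exon. The values are log2 signals made by the authors with RMA, a method that corrects the background and gives all arrays nearly equal distributions. The 75 genes rested on 393 probe sets, with 1 to 17 per gene and a median of 4, and 9 genes rested on 1 probe set. A log2 fold change is the mean of the E8.5 arrays minus that of the E7.5 arrays, so that a negative value means a lower signal at E8.5, and 1 log2 unit is 2-fold. The stages were compared with limma over all 16523 genes, with Benjamini-Hochberg adjustment over all of them and a threshold of 0.05. The number of arrays limits the precision, no detection calls accompany the values, and the signal of one gene cannot be set against that of another.

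The gate was first checked in the same values. *Etv2* lay between 10.93 and 12.09 on the 6 arrays and *Kdr* between 7.95 and 9.92, whereas *Itga2b*, which encodes CD41, lay between 7.58 and 8.45 and its absence could not be judged without detection calls. Of 6 measured markers of primitive erythroid cells, only *Hbb-bh1* passed the adjusted threshold, at 7.45, 7.53 and 8.96 at E7.5 and 3.02, 3.56 and 2.73 at E8.5 (log2 fold change -4.87, SE 0.46, adjusted p = 0.046 from limma). Over the 6 markers the median was 6.94 to 7.59 on the E7.5 arrays and 5.39 to 5.58 on the E8.5 arrays, but the median of their log2 fold changes was -0.03, with 3 positive and 3 negative. *Gata1* was also lower at E8.5 (-1.86, adjusted p = 0.36 from limma), while *Hba-x*, *Klf1*, *Alas2* and *Epb4.2* differed by 0.13 or less. Of the 10 cardiac markers 5 were positive and 5 negative, with a median log2 fold change of 0.0058. *Myl7* read 11.34, 10.70 and 11.29 at E7.5 and 7.97, 10.63 and 7.09 at E8.5 (-2.55, SE 0.89). The largest positive differences were those of *Actc1* (0.96, SE 0.97) and *Myl4* (0.79, SE 0.62). The median over the 10 cardiac markers was 6.65 to 6.96 on the E7.5 arrays and 6.49, 8.40 and 6.61 on the E8.5 arrays. Of 10 gate and endothelial genes, 6 were positive and 4 negative, with a median log2 fold change of 0.34. *Emcn*, *Cd34* and *Tie1* had an unadjusted p under 0.05, all higher at E8.5. Each E8.5 array lay above each E7.5 array in 3 of the 10 genes and below it in 2, against 7.1% and 7.12% of all genes. The medians over the 10 genes were 6.89 to 8.30 at E7.5 and 7.83 to 8.72 at E8.5. The part of these cell types in the values of the respiratory chain genes was not tested.

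No gene of the respiratory chain passed the adjusted threshold, which 0.109% of all genes did (18 of 16523), and among the 75 limma gave the lowest adjusted p, 0.17, to *Ndufs1*. At an unadjusted p under 0.05, 4 genes were lower at E8.5 (*Ndufs1*, *Ndufa7*, *Ndufv2* and *Cox7c*) and 1 was higher (*Sdhc*). With each array centred, or with quantile normalization applied again, the split was 1 lower and 1 higher. Before such rescaling, 4.68% of all genes were lower and 3.11% higher by this measure. The share among the respiratory chain genes was thus near the background. Only *Ndufs1*, lower at E8.5, and *Uqcr*, higher at E8.5, had means that differed by more than 2-fold, against 4.79% of all genes lower and 2.72% higher. The 3 E8.5 arrays lay below the 3 E7.5 arrays in 7 of the 75 genes and above them in 6, where the shares of all genes were 7.12% and 7.1%.

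The differences of most of the 75 genes were bounded within 2-fold. For 52 of them, or 69.3%, the whole 95% confidence interval of the difference lay within 2-fold in either direction, against 55.1% of all genes. The residual SD, which is the spread of the 3 arrays of a stage around their mean, had a median of 0.24 over the 75 genes and of 0.34 over all genes. Within a stage, the highest and lowest of the 3 arrays differed by a median of 0.39 at E7.5 and 0.44 at E8.5, and by more than 2-fold in 9 and 12 of the genes. Since 73 of the 75 genes had a mean signal above the median gene, the bounds were also read among such genes only. There, 50 of the 73 and 47.8% of all 8261 had an interval within 2-fold. The 73 still lay higher, with array medians of 10.55 to 10.83 against 7.75 to 7.89, so signal was not matched.

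By direction, 46 of the 75 differences were negative and 29 positive, which became 39 and 36 with each array centred on its own median and 41 and 34 with quantile normalization applied again. Their median was -0.07, with quartiles at -0.31 and 0.12, and the median over all genes was 0.00. Under the 2 other scalings the median of the 75 genes was -0.0086 and -0.016, but that over all genes rose to 0.068 in both. The more even splits therefore do not show that the 75 genes lay closer to all genes. The median level of the 75 genes was 10.60, 10.79 and 10.77 on the E7.5 arrays and 10.60, 10.44 and 10.55 on the E8.5 arrays, so that E7.5 replicate 1 lay with the E8.5 arrays. Of the 75 genes, 21 were highest on E7.5 replicate 2 and 19 on E8.5 replicate 1, and 18 were lowest on E8.5 replicate 2. Of the 393 probe sets from which these gene values were made, 245 (62.3%) had a lower mean at E8.5, against 51.3% of the probe sets of all genes. This count was made without rescaling and is not separate from that of the genes. The genes share their arrays, so these counts describe 6 samples and not 75 independent observations.

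**Figure D1:**
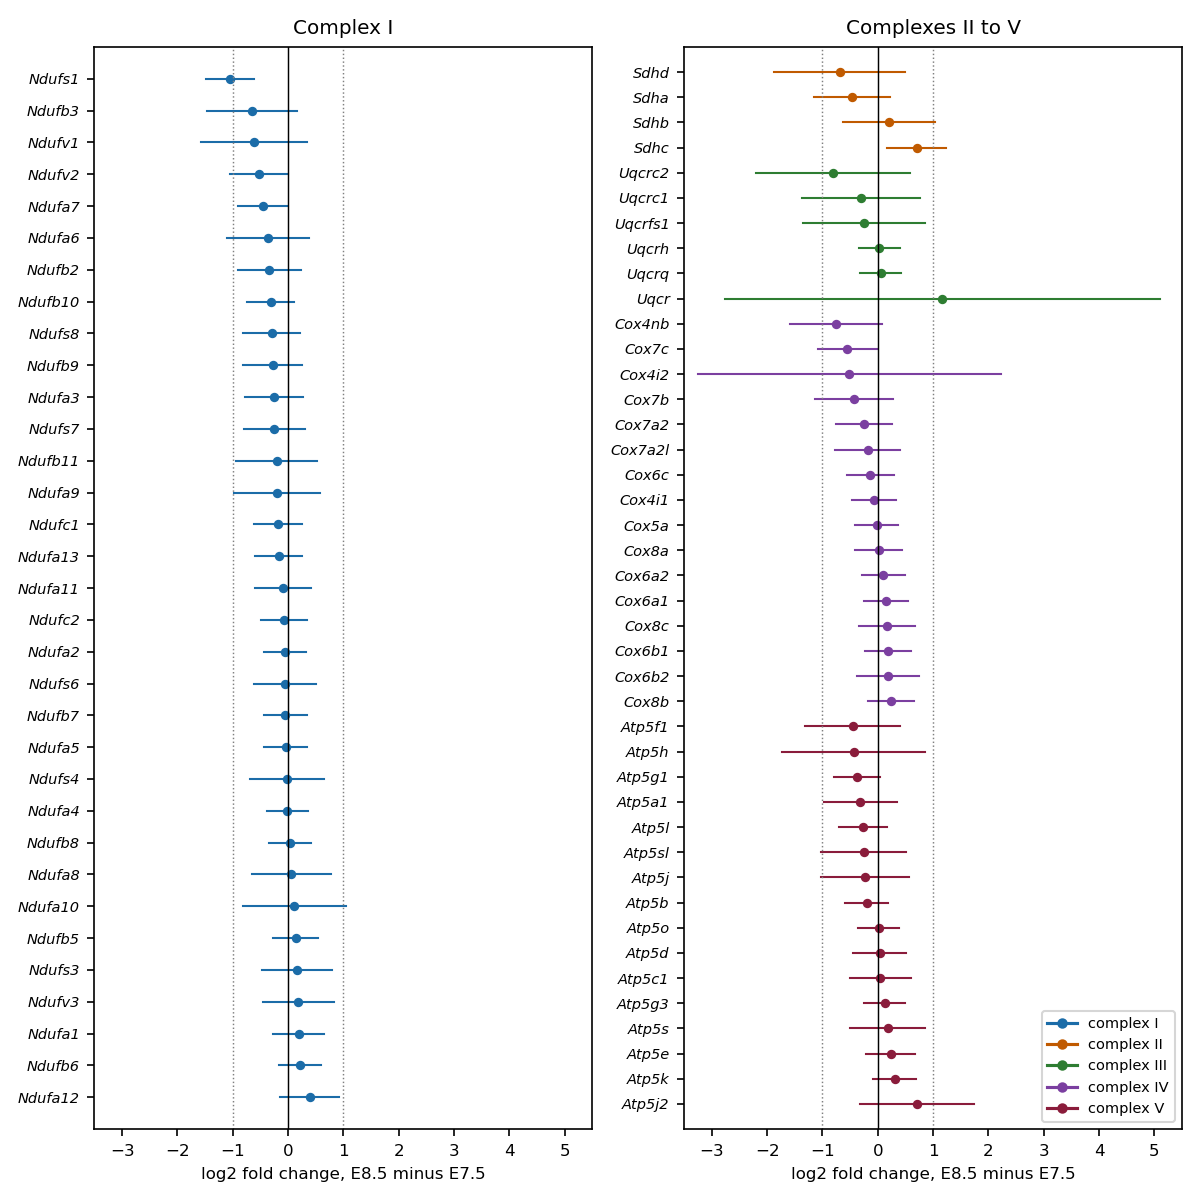
Log2 fold change (horizontal axis, E8.5 minus E7.5, log2 units) of each of the 75 genes, with bars for the 95% confidence interval from limma over 3 arrays per stage and dotted lines at 2-fold. Most points lie close to 0 with bars inside the dotted lines, *Ndufs1* is the lowest at -1.04, and the bars of *Uqcr* and *Cox4i2* span the widest ranges.

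Side by side, the median log2 fold changes of the complexes were -0.10 for complex I, -0.13 for complex II, -0.11 for complex III, -0.04 for complex IV and -0.09 for complex V. These medians lay within 0.09 log2 units of each other, and centring the arrays turned that of complex IV to 0.02. With centring the median over all genes was 0.068. The spread of the arrays differed more between the complexes than the medians did. The residual SD had a median of 0.24 in complex I, 0.42 in complex II, 0.64 in complex III, 0.18 in complex IV and 0.23 in complex V. Accordingly, the interval lay within 2-fold for 27 of 33 genes of complex I, 12 of 16 of complex IV and 11 of 16 of complex V, but for 2 of 6 of complex III and 0 of 4 of complex II. No test between the complexes was made.

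In complex I, which takes electrons from NADH, 24 of 33 genes had a negative difference and 9 a positive one. The split was 18 and 15 with each array centred and 20 and 13 with quantile normalization applied again. At an unadjusted p under 0.05, 3 genes were lower, where 4.68% of all genes were lower by this measure. Under both other scalings 1 gene, *Ndufs1*, had such a p. The median of complex I was then -0.034 and -0.016, while that over all genes was 0.068 in both. *Ndufs1* encodes the largest subunit of the NADH-oxidizing tip of the complex and carries iron-sulfur clusters. Its level was 8.65, 8.83 and 8.58 at E7.5 and 7.83, 7.57 and 7.53 at E8.5. Each E8.5 array thus lay below each E7.5 array, by at least 0.75 log2 units. The log2 fold change was -1.04 (SE 0.18, 95% interval -1.47 to -0.61, unadjusted p = 9.7e-04, adjusted p = 0.17 from limma). Of its 6 probe sets, 5 were lower at E8.5, by 0.62 to 1.76 in the mean, while the dimmest of the 6 at E7.5 was higher by 1.17. Its unadjusted p stayed under 0.05 in all 14 other settings fitted with limma, with adjusted p from 0.17 to 0.71, and the difference was smallest, at -0.62, with the brightest probe set alone. Of the other 3 genes lower at E8.5, *Cox7c* had such a p in 6 of the 14 settings, *Ndufv2* in 3 and *Ndufa7* in 2. *Cox7c* rested on 1 probe set and was left out of the setting with at least 3. Its brightest probe set and its mean over probe sets were the same values, and both settings are among its 6.

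*Ndufv2*, an iron-sulfur subunit of the same NADH-oxidizing tip, read 10.60, 10.23 and 10.62 at E7.5 and 10.07, 9.66 and 10.13 at E8.5, with 8 of its 10 probe sets lower at E8.5. The groups did not overlap, although the gap between the lowest E7.5 and the highest E8.5 array was narrow. Its log2 fold change was -0.53 (SE 0.22, adjusted p = 0.63 from limma). *Ndufa7*, an accessory subunit of that tip, read 10.59, 10.53 and 10.87 at E7.5 and 10.33, 10.06 and 10.23 at E8.5, also without overlap and with all 3 probe sets lower. The difference was -0.46 (SE 0.18, adjusted p = 0.62 from limma). It exceeded in size that of each probe set, -0.23 to -0.44, because the median fell on different probe sets on different arrays. The brightest probe set of *Ndufa7* differed by -0.23. *Ndufv1*, which binds NADH and FMN next to these 2 iron-sulfur subunits, read 10.03, 9.37 and 8.95 at E7.5 and 9.24, 8.18 and 9.07 at E8.5, and here the groups overlapped (-0.62, SE 0.40, adjusted p = 0.75 from limma).

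The core subunits of the peripheral arm, most of which carry redox centres, numbered 6 among the measured genes, and 5 of them were negative. Their median was -0.42, against -0.07 for the 26 accessory subunits, of which 18 were negative. Besides the 3 genes above, the core genes were *Ndufs7* at -0.25 and *Ndufs8* at -0.30, which carry the iron-sulfur clusters nearest to coenzyme Q, and *Ndufs3* at 0.16. All 11 probe sets of *Ndufs7* and all 7 of *Ndufs8* were lower at E8.5, but the arrays of both stages overlapped. *Ndufs3* read 3.99 to 4.88 over the 6 arrays and rested on 2 probe sets with opposite signs. The grouping by role was made with the values in view, and the difference between core and accessory subunits was not tested.

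Toward higher values at E8.5, complex I held *Ndufa12*, an accessory subunit of the peripheral arm, at 9.65, 9.34 and 9.33 against 9.99, 9.49 and 10.003, and the groups overlapped (0.39, SE 0.22, adjusted p = 0.73 from limma). *Ndufb6*, an accessory subunit of the membrane arm, read 12.30, 12.32 and 12.25 at E7.5 and 12.41, 12.60 and 12.51 at E8.5 without overlap, but 1 of its 3 probe sets pointed the other way. The difference was 0.22, with a 95% interval of -0.16 to 0.60. The most tightly bounded gene of the complex was *Ndufa4*, at 12.85, 12.98 and 12.97 against 12.91, 12.88 and 12.97, with a difference of -0.01 and an interval of -0.39 to 0.36. *Ndufb8*, of the membrane arm, read 11.77, 11.64 and 11.63 against 11.79, 11.67 and 11.71 and was bounded between -0.34 and 0.42. The remaining genes of the complex had differences from -0.65, for *Ndufb3* with 1 probe set, to 0.19, and the groups overlapped in each.

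**Figure D2:**
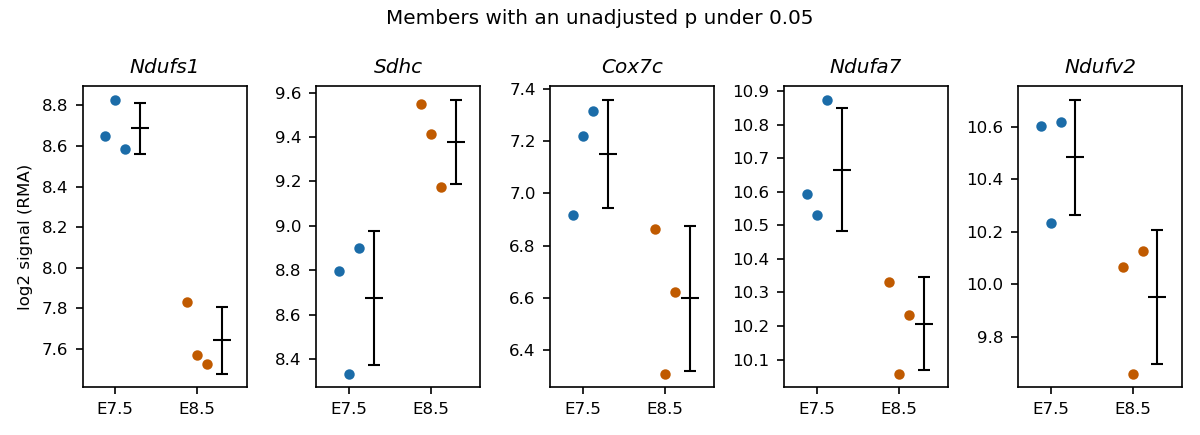
Log2 signal (vertical axis, separate scale per gene) on each of the 3 E7.5 and 3 E8.5 arrays for the 5 genes with an unadjusted p under 0.05 from limma, with the mean and SD of each stage to the right of the points. In all 5 the stages do not overlap, with *Sdhc* higher and the other 4 lower at E8.5, and none has an adjusted p under 0.05.

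Complex II oxidizes succinate and is the only complex of the chain that is also an enzyme of the TCA cycle. Its 4 genes differed in opposite directions. *Sdhc*, a membrane anchor that helps to hold heme b and bind coenzyme Q, read 8.80, 8.33 and 8.90 at E7.5 and 9.55, 9.41 and 9.17 at E8.5. All E8.5 arrays were above all E7.5 arrays, and all 6 probe sets had a higher mean at E8.5, by 0.33 to 0.93. The log2 fold change was 0.70 (SE 0.22, 95% interval 0.16 to 1.24, adjusted p = 0.52 from limma). Its unadjusted p stayed under 0.05 in 11 of 14 other settings and was above it when E7.5 replicate 2 was left out, and likewise with either of replicates 1 and 2 of E8.5 left out.

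The other membrane anchor, *Sdhd*, read 10.82, 9.70 and 10.81 at E7.5 and 8.92, 9.92 and 10.41 at E8.5. Its groups overlapped through E7.5 replicate 2, although at E8.5 each of the 5 probe sets was lower on average, and the difference was -0.69 (SE 0.49, adjusted p = 0.77 from limma). The flavoprotein gene *Sdha*, which holds the succinate site, read 10.67, 10.79 and 10.28 against 10.59, 9.70 and 10.05 (-0.46, SE 0.28), with 11 of 17 probe sets lower. The iron-sulfur gene *Sdhb* read 9.11, 10.22 and 10.02 against 10.30, 9.69 and 9.95 (0.20, SE 0.34), and the sign turned to -0.14 without E7.5 replicate 1, where it was lowest. The interval of each of the 4 genes reached beyond 2-fold, and those of *Sdha*, *Sdhb* and *Sdhd* also held 0.

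In complex III, which passes electrons from coenzyme Q to cytochrome c, 3 genes were negative and 3 positive, and none had an unadjusted p under 0.05. The genes fell apart by their spread. *Uqcrh*, the acidic hinge protein at the cytochrome c site, read 12.93, 12.77 and 12.84 at E7.5 and 12.85, 12.94 and 12.85 at E8.5. *Uqcrq*, a small accessory subunit, read 12.58, 12.64 and 12.52 against 12.65, 12.64 and 12.60. The 6 arrays of each lay within 0.17 log2 units, and the differences were bounded between -0.35 and 0.41 for *Uqcrh* and between -0.32 and 0.42 for *Uqcrq*.

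By contrast, *Uqcr* (*Uqcr11* in the current annotation) read 9.66, 5.02 and 10.79 at E7.5 and 11.53, 8.61 and 8.83 at E8.5 on a single probe set. It was over 2-fold higher in the mean at E8.5 (1.17, SE 1.62), but the arrays within E7.5 differed by 5.76 log2 units, and without E7.5 replicate 2 the difference was -0.57. The core genes *Uqcrc1* and *Uqcrc2* and the Rieske iron-sulfur gene *Uqcrfs1* also overlapped between the stages. *Uqcrc1* read 8.84, 8.68 and 9.61 against 8.07, 8.62 and 9.53 (-0.31, SE 0.44). *Uqcrfs1* had a difference of -0.25 (SE 0.45).

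*Uqcrc2* had the largest negative difference of complex III, at 9.89, 10.14 and 8.17 at E7.5 and 8.59, 8.09 and 9.12 at E8.5 (-0.80, SE 0.57, adjusted p = 0.77 from limma). Without E7.5 replicate 3 the difference was -1.42, with an unadjusted p under 0.05 and an adjusted p of 0.52 from limma, and without E7.5 replicate 2 it was -0.43. Its 16 probe sets did not move as one. In 4 of them, picked because E7.5 replicate 3 lay more than 1.5 log2 units below E7.5 replicate 1, the signal was 9.95 to 10.52 on E7.5 replicates 1 and 2, 7.51 to 8.22 on E7.5 replicate 3, 8.23 to 8.83 on E8.5 replicate 1, 5.66 to 6.79 on E8.5 replicate 2 and 8.88 to 9.51 on E8.5 replicate 3. These 4 probe sets had a median difference of -1.58 and the other 12 one of -0.09. The 2 brightest probe sets read 11.62 to 12.24 on all 6 arrays and differed by 0.00 and 0.08 between the stages. The deposited table holds no positions, so where in the gene these probe sets lie was not analysed here.

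**Figure D3:**
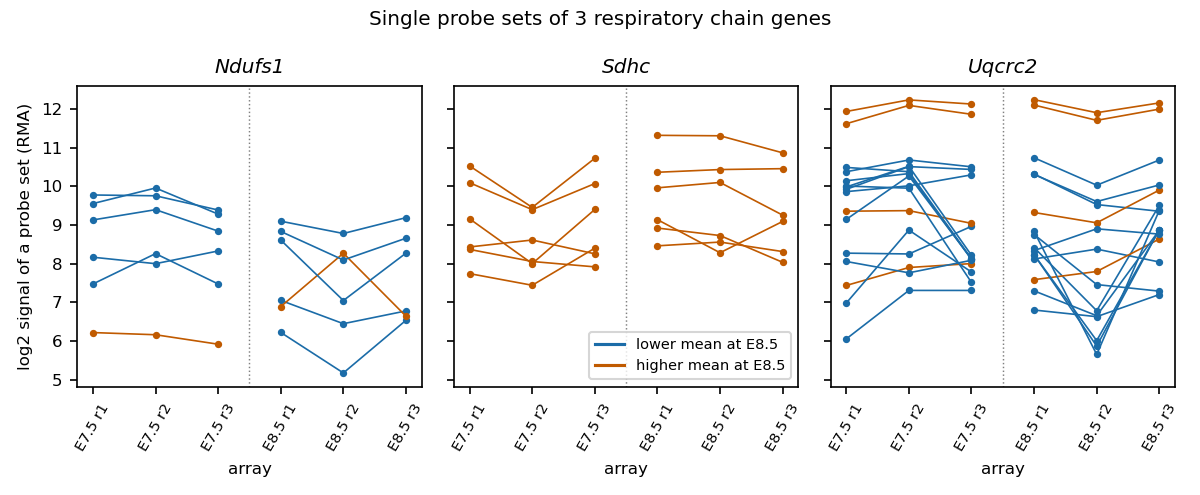
Log2 signal (vertical axis) of every probe set of *Ndufs1* (6), *Sdhc* (6) and *Uqcrc2* (16) on each array (horizontal axis), 1 line per probe set and stage, coloured by whether its mean was lower or higher at E8.5. In *Ndufs1* 5 of 6 and in *Sdhc* 0 of 6 probe sets were lower, and in *Uqcrc2* a set of lines drops together on E7.5 replicate 3 and E8.5 replicate 2 while the 2 brightest stay level.

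Complex IV, which reduces oxygen, had 9 negative and 7 positive differences. *Cox7c*, a small structural subunit found in all tissues, read 6.92, 7.22 and 7.31 at E7.5 and 6.86, 6.31 and 6.62 at E8.5 on its 1 probe set. The groups did not overlap, by a margin of 0.06, and the difference was -0.55 (SE 0.22, adjusted p = 0.61 from limma). *Cox4nb*, which is not a subunit of the complex, read 9.99, 9.84 and 10.77 against 8.99, 9.83 and 9.54 and had the most negative difference taken by the rule here (-0.75, SE 0.34, adjusted p = 0.68 from limma), with 6 of 7 probe sets lower. *Cox5a*, a ubiquitous subunit on the matrix side, read 11.41, 11.51 and 11.33 against 11.30, 11.41 and 11.49 and was bounded between -0.41 and 0.37.

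Several subunits of complex IV have more than 1 form, and the levels of each pair were compared between the stages, never with each other. *Cox4i1*, the form found in nearly all tissues, read 12.39, 12.65 and 12.66 at E7.5 and 12.50, 12.47 and 12.53 at E8.5, with an interval of -0.47 to 0.33. *Cox4i2*, the form known from lung and from low oxygen, read 8.72, 8.81 and 6.02 at E7.5 and 8.84, 5.34 and 7.83 at E8.5. Within each stage it thus differed by more than 4-fold between arrays, and its difference of -0.51 (SE 1.13) turned to 0.49 without E8.5 replicate 2. Its brightest probe set read 10.10 to 10.68 on 4 arrays and 5.74 and 4.52 on E7.5 replicate 3 and E8.5 replicate 2.

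The forms used widely in the body had small differences. *Cox6a1* read 12.44, 12.38 and 12.16 against 12.42, 12.49 and 12.52 (0.15, SE 0.16). *Cox6b1* read 12.64, 12.51 and 12.33 against 12.75, 12.67 and 12.60 (0.18, SE 0.17), and *Cox8a* read 10.92, 11.02 and 10.92 against 11.10, 11.06 and 10.76 (0.02, SE 0.17). For these 3 genes the interval lay within 2-fold and the groups overlapped. *Cox7a2* read 9.70, 9.29 and 9.13 against 9.17, 9.22 and 8.99 (-0.25, SE 0.21).

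The muscle forms *Cox6a2* and *Cox8b* and the testis forms *Cox6b2* and *Cox8c* all had small positive differences. *Cox8b* read 6.21, 6.33 and 5.99 at E7.5 and 6.45, 6.44 and 6.34 at E8.5, without overlap (0.24, SE 0.17, adjusted p = 0.77 from limma). *Cox6a2* read 7.20, 7.44 and 7.37 against 7.45, 7.41 and 7.45 and was bounded between -0.29 and 0.49. The testis forms differed by 0.19 (*Cox6b2*) and 0.16 (*Cox8c*), with overlap of the groups. Among subunits with related copies, *Cox7b* read 10.47, 10.40 and 11.24 against 10.52, 9.999 and 10.31 (-0.43, SE 0.29), and *Cox7a2l*, which encodes a protein that joins complexes III and IV, read 11.93, 11.98 and 12.29 against 11.60, 11.77 and 12.28 (-0.18, SE 0.24).

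Complex V was split evenly, with 8 negative and 8 positive differences and none with an unadjusted p under 0.05 from limma. The stages did not overlap in 2 genes lower and 3 higher at E8.5. These were 12.5% and 18.8% of its 16 genes, against 7.12% and 7.1% of all genes. Subunit c, which forms the rotating ring of the membrane part, is encoded by several genes that give the same mature protein, and 2 of them were measured. *Atp5g1* read 8.82, 8.98 and 8.66 at E7.5 and 8.38, 8.44 and 8.54 at E8.5. It was lower at E8.5 on each array (-0.37, SE 0.17, 95% interval -0.78 to 0.05, adjusted p = 0.69 from limma), as were both of its probe sets in the mean. *Atp5g3* read 12.65, 12.57 and 12.59 against 12.72, 12.73 and 12.73, without overlap but with a difference of only 0.12 (SE 0.15), and 3 of its 7 probe sets were lower. Whether the 2 genes differed in their response was not tested.

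The F1 head and central stalk, where ATP is made, had 5 genes with a median of 0.04. *Atp5b*, the catalytic beta subunit, read 11.73, 11.84 and 11.76 at E7.5 and 11.67, 11.48 and 11.57 at E8.5, without overlap and with 11 of 13 probe sets lower. Its difference of -0.20 (SE 0.16) was bounded between -0.58 and 0.18. The alpha subunit gene *Atp5a1* had a difference of -0.32 (SE 0.27), and the stalk genes *Atp5c1*, *Atp5d* and *Atp5e* had differences of 0.05, 0.04 and 0.24, of which only *Atp5e* had no overlap of the groups.

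The 9 genes of the membrane part and the peripheral stalk had a median of -0.23, with differences from -0.45 to 0.71. *Atp5k*, subunit e, read 11.83, 11.81 and 11.60 at E7.5 and 12.04, 12.08 and 12.04 at E8.5, without overlap (0.31, SE 0.16, adjusted p = 0.72 from limma). Yet 2 of its 3 probe sets were lower at E8.5, by 0.08 and 0.10, so that the median over probe sets followed the remaining one. *Atp5j2*, subunit f, read 8.41, 8.20 and 8.15 against 9.89, 8.78 and 8.23 (0.71, SE 0.42). This exceeded the difference of each of its 3 probe sets, which ran from -0.047 to 0.51. On E8.5 replicate 1 the median fell on another probe set than on the other arrays. *Atp5l*, subunit g, read 10.33, 10.52 and 10.11 against 9.99, 10.12 and 10.03 (-0.27, SE 0.18). *Atp5o*, the stalk protein that confers sensitivity to oligomycin, read 12.15, 12.11 and 11.99 against 12.06, 12.15 and 12.08 and was bounded between -0.36 and 0.39. *Atp5f1* and *Atp5h*, also of the stalk, had differences of -0.45 (SE 0.35) and -0.44 (SE 0.53).

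Many genes rested on several probe sets, which allowed a check within each gene. Of the 54 genes with at least 3 probe sets, all probe sets were lower at E8.5 in 10 genes and higher in 3, while 41 were mixed. One direction was thus shared in 24.1% of them, against 18.9% of all genes with at least 3 probe sets. The differences of the probe sets of 1 gene had a median spread of 0.56 in the respiratory chain genes and of 1.11 in all genes. Neither the number of probe sets per gene nor the signal level was matched in these comparisons. Probe sets of 1 gene share the amplified RNA and are not replicates.

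Nuclear genes of the respiratory chain are known as targets of NRF1, of the ETS factor GABP and of YY1, so the 250 bases before the annotated start were searched, on both strands, for GCGCATGC (NRF1), CCGGAAGT (the core bound by GABP and other ETS factors, which include ETV2) and AAGATGGCG (YY1). A promoter was given by RefSeq, in build GRCm38.p6, for 62 of the 75 genes. The NRF1 letters were found in 7 of the 62 (11.3%) and in 2.56% of all 27025 genes with a RefSeq promoter, a set not limited to genes on the array. The ETS letters were found in 3 (4.84%, against 3.23% of all), and the YY1 letters in 2 (3.23%, against 0.711%). The 7 genes with the NRF1 letters (*Ndufa6*, *Ndufa8*, *Ndufa11*, *Sdhb*, *Cox6a1*, *Atp5k* and *Atp5l*) had a median log2 fold change of 0.06, and those without them one of -0.07. A match of letters is a description of the sequence and not a bound site.

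To show what such promoters look like, 1 gene each of complexes V, II and III is printed below from 5′ to 3′ on the strand of the gene, ending at the last base before the start, with the matched letters in capitals. In *Atp5k* (chr5:108434400-108434649, minus strand) the NRF1 letters begin 50 bases before the start and overlap their own match on the other strand, in *Sdhb* (chr4:140961021-140961270, plus strand) they begin 54 bases before the start on the opposite strand, and in *Uqcrh* (chr4:116075071-116075320, minus strand) the ETS letters begin 11 bases before the start on the opposite strand.
Atp5k: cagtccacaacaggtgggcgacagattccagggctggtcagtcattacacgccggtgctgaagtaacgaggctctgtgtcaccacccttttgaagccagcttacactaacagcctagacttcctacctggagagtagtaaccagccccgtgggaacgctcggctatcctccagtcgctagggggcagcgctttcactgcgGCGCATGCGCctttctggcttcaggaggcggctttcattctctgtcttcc
Sdhb: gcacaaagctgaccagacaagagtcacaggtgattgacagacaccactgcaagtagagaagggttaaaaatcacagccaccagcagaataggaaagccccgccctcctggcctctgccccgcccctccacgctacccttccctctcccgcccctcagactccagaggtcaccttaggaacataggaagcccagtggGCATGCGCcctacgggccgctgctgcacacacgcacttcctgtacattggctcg
Uqcrh: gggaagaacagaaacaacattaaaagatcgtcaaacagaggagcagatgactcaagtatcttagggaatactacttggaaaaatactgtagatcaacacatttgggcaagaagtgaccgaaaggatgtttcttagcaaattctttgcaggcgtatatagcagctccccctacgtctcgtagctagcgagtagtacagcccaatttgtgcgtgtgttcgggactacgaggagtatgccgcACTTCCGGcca

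The levels of the factors named above were then read in the same arrays. *Nrf1*, which encodes the factor of that name, read 6.54, 6.81 and 7.51 at E7.5 and 5.95, 5.27 and 6.62 at E8.5, with 1 E8.5 array inside the E7.5 range (-1.01, SE 0.42, adjusted p = 0.64 from limma) and 7 of its 8 probe sets lower. *Gabpa*, the DNA-binding part of GABP, read 5.55, 4.98 and 5.03 against 6.05, 6.25 and 5.30 (0.68, SE 0.31, adjusted p = 0.68 from limma) on 1 probe set. *Yy1* read 9.32, 9.59 and 9.77 against 10.27, 9.94 and 10.23, higher on every E8.5 array (0.59, SE 0.20, adjusted p = 0.56 from limma). The coactivator *Ppargc1a*, which drives mitochondrial biogenesis in muscle and brown fat, differed by -0.10 (SE 0.24) and *Tfam*, which packages and transcribes mitochondrial DNA, by 0.06 (SE 0.25). Of 12 biogenesis regulators, 8 were positive and 4 negative, 1 in each direction had an unadjusted p under 0.05 (*Yy1* and *Ppard*, the latter at -0.80, SE 0.23), and the median was 0.18.

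The proteins that assemble the complexes are encoded by other genes, and most of those measured for complexes I to IV were negative, against 8185 of all 16523 genes. This held for 11 of 13 assembly factors of complex I (8 with each array centred), 4 of 4 of complex II (3 with centring), 5 of 6 of complex III and 16 of 21 of complex IV (15 with centring). Centring also raised the median over all genes to 0.068, so the centred counts cannot be set against the 8185. The medians of the assembly factors were -0.19, -0.31, -0.45 and -0.36, below those of the complexes themselves. Their residual SDs had medians of 0.58, 0.82, 0.56 and 0.49, against 0.24 over the 75 genes. In each of these lists the array medians of the stages overlapped. Only 1 of these 44 genes had an unadjusted p under 0.05, where 4.68% of all genes were lower and 3.11% higher by this measure. That gene was *Cox17*, the copper chaperone of complex IV, at 8.55, 8.60 and 8.37 at E7.5 and 7.97, 7.59 and 7.37 at E8.5. Its groups did not overlap, all 5 probe sets were lower, and the difference was -0.86 (SE 0.21, adjusted p = 0.38 from limma). Of 4 complex V assembly and inhibitor genes, 3 were positive, with a median of 0.15. *Atpaf1*, a chaperone of the F1 beta subunit, was higher at E8.5 on its 1 probe set (1.32, SE 0.39, adjusted p = 0.49 from limma), and the inhibitor *Atpif1* differed by 0.06 (SE 0.19).

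Of 4 measured electron carriers, *Etfa*, which feeds electrons from fatty acid oxidation to coenzyme Q, read 8.69, 8.87 and 8.68 at E7.5 and 8.04, 8.24 and 8.45 at E8.5 (-0.50, SE 0.18, adjusted p = 0.58 from limma). *Cycs*, the gene of cytochrome c, was not analysed here. None of 13 genes of coenzyme Q synthesis had an unadjusted p under 0.05, and their median was -0.09. Of 15 genes of the TCA cycle and pyruvate dehydrogenase, *Sucla2*, a subunit of succinyl-CoA synthetase, was the one with an unadjusted p under 0.05. It read 5.64, 6.22 and 6.06 at E7.5 and 8.96, 6.32 and 8.11 at E8.5, higher at E8.5 but with E8.5 replicate 2 close to the E7.5 arrays (1.83, SE 0.66, adjusted p = 0.58 from limma).

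Mitochondrial ribosomal proteins translate the mitochondrially encoded subunits of the chain. Of their 67 measured genes 51 were negative, against 46 with each array centred and 43 with quantile normalization applied again. At an unadjusted p under 0.05, 9 were lower at E8.5 and 0 were higher, where 4.68% of all genes were lower and 3.11% higher, and none had an adjusted p under 0.05 from limma. Their median was -0.22, and -0.16 and -0.11 under the same 2 scalings, where the median over all genes rose from 0.00 to 0.068. Each E8.5 array lay below each E7.5 array in 11 genes (16.4%) and above it in 1, against 7.12% and 7.1% of all genes. *Mrpl3*, of the large subunit, read 9.22, 9.27 and 9.07 against 8.09, 6.55 and 7.68 with all 9 probe sets lower (-1.75, SE 0.40, adjusted p = 0.35 from limma). *Mrpl4* had a difference of -0.86 (SE 0.21) and *Mrps6*, of the small subunit, one of -0.69 (SE 0.20).

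Of 8 measured genes of mitochondrial transcription and DNA maintenance, 6 were negative, and their median of -0.63 was the lowest of the mitochondrial lists. *Peo1* (*Twnk*, the mitochondrial DNA helicase) was higher at E8.5 on each array, at 5.77, 6.14 and 5.69 against 7.90, 7.84 and 6.31 (1.48, SE 0.46, adjusted p = 0.50 from limma). *Mterfd2* and *1110002N22Rik* were lower, with differences of -0.81 (SE 0.29) and -0.88 (SE 0.32). No gene of any of these mitochondrial lists passed the adjusted threshold. The lists share their 6 arrays with the respiratory chain genes, and no test between lists was made.

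**Figure D4:**
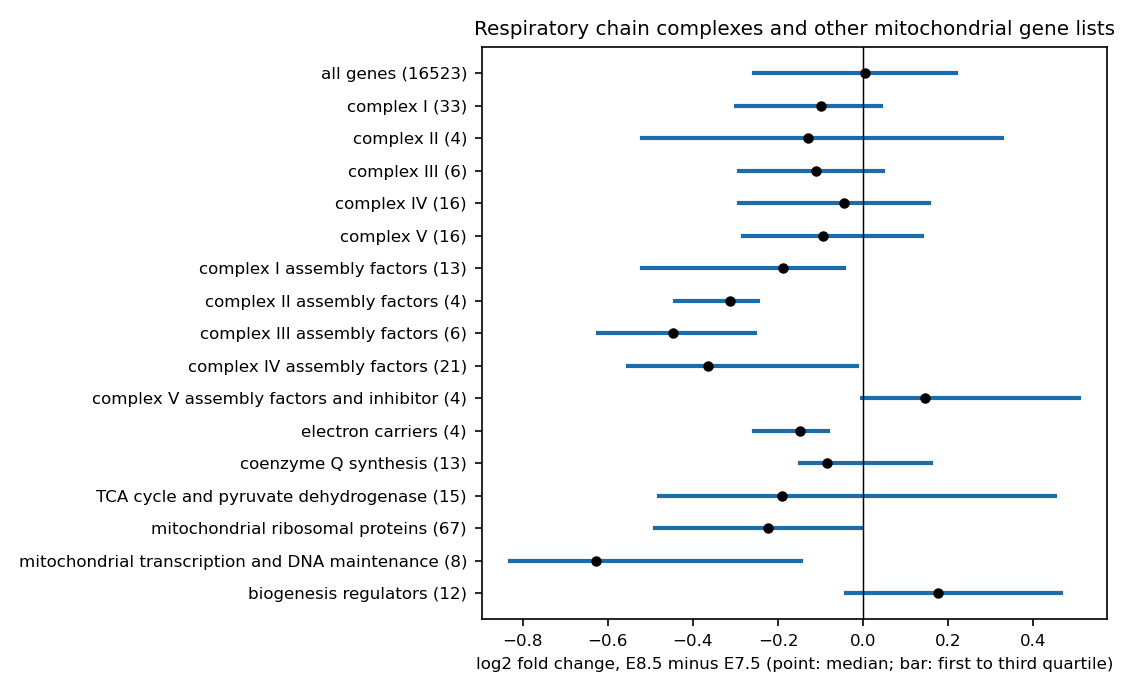
Median (point) and interquartile range (bar) of the log2 fold changes (horizontal axis, E8.5 minus E7.5) of all genes, of the 5 complexes and of the other mitochondrial lists, with the number of measured genes in brackets. The complexes have medians from -0.13 to -0.04, and the assembly factors of complexes I to IV and the mitochondrial ribosomal proteins have medians of -0.45 to -0.19, while mitochondrial transcription and DNA maintenance has the lowest, -0.63, over 8 genes.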

How the data were processed

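The authors sorted 50 cells per replicate, amplified the RNA, hybridized Mouse Exon 1.0 ST arrays and ran RMA, and they deposited its log2 values per exon probe set. The submitters' processing notes name RMA and Affymetrix Power Tools without a version. RMA equalizes the arrays, so a shift of all transcripts would not be seen, and amplification from few cells can lose transcripts at random. Gene symbols came from GEO's platform annotation. Among 90788 probe sets, 77669 had 1 symbol and were used, 654 had several and 12465 had none listed. Of 16523 genes, 13887 symbols were current in RefSeq, 2597 matched by a synonym and 39 matched neither. The median of an array lay between 6.98 and 7.07.

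The limma package 3.58.1 (lmFit, eBayes) in R 4.3.3 was run on medians over probe sets with no filter, and the procedure was tested on simulated data. The genes and lists were chosen with earlier results of these data known. Named are genes with an unadjusted p under 0.05, the 2 with the smallest p per direction and complex, the isoform families and up to 3 per complex with the narrowest intervals. In the other mitochondrial lists, up to 3 genes per direction were named, besides *Ppargc1a*, *Nrf1*, *Gabpa*, *Tfam*, *Cycs* and *Atpif1*. Other genes named were chosen after their values were seen. Alternatives covered the value per gene, the normalization, filters, the variance model, the methods' t-test, the replicate block and leaving out each array.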

Additional observations from a re-analysis of the deposited data

How the results depend on the processing

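No respiratory chain gene passed the adjusted threshold in any alternative, and the lowest adjusted p ranged from 0.17 to 0.71 (limma, and the methods' t-test). The median log2 fold change of the 75 genes stayed negative, from -0.12 to -0.0086, in every alternative. The value of -0.0086 came with centring, where the median over all genes was 0.068. Of 480 values of the 38 named genes under an alternative, 447 kept their sign and side of the threshold. The 6 arrays and the missing detection calls limit what can be told: low signal may mean no transcript, and a missed threshold does not show equal levels. Samples with the same replicate number showed no shared deviation (correlations 0.0074, -0.0083 and -0.0008). The labels do not say whether they were handled together, which these values cannot decide. With the number as a block 3 genes had an unadjusted p under 0.05 and 0 passed.

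The count of 5 genes with an unadjusted p under 0.05 became 2 with each array centred on its median, 2 with quantile normalization applied again, 2 among genes with at least 3 probe sets, 8 by the methods' t-test (4 lower, 4 higher) and 2 to 5 without 1 array. The genes called by the t-test included *Atp5b*, *Atp5g1*, *Atp5g3* and *Atp5k* of complex V, in which limma called none. The count from limma was 2 without E7.5 replicate 2 (*Ndufs1*, *Ndufv2*) and 2 without E8.5 replicate 2 (*Ndufs1*, *Ndufa12*). The 2 genes over 2-fold became 1 with centring, quantile normalization, the brightest probe set, the mean over probe sets or at least 3 probe sets, and 1 to 4 without 1 array, with 1 without E7.5 replicate 2 (*Sdhd*), 4 without E7.5 replicate 3 and 4 without E8.5 replicate 3. The median of complex II was 0.17 with the brightest probe set and -0.28 to 0.045 without 1 array, being 0.031 without E7.5 replicate 2 and 0.045 without E8.5 replicate 2. The causes were not tested. Leaving out *Cox4nb*, *Atp5s* and *Atp5sl*, or counting *Ndufa4* with complex IV, both chosen after seeing the data, left the counts past the adjusted threshold, with an unadjusted p under 0.05 and over 2-fold as they were and gave medians of -0.071 for all, -0.14 for complex I and -0.019 for complex IV.

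Of the 38 named genes, 19 turned sign in some alternative, among them *Uqcr*, *Uqcrc2*, *Atp5j2* and *Cox4i2* with large differences. With the brightest probe set the differences were 0.0014 for *Uqcrc2*, -0.15 for *Uqcrq*, 0.015 for *Cox7a2*, -0.23 for *Cox6a1*, -0.077 for *Cox8c*, 0.080 for *Cox4i1*, -0.085 for *Atp5k*, -0.047 for *Atp5j2*, -0.23 for *Atp5g3* and -0.028 for *Atp5o*. With the mean over probe sets they were -0.053 for *Ndufb8*, -0.14 for *Uqcrq*, -0.036 for *Cox6a1*, 0.050 for *Cox4i1* and -0.15 for *Atp5o*. Centring gave 0.050 for *Ndufa4* and 0.045 for *Cox5a*, and quantile normalization 0.0025 and 0.044. Without 1 array the values ran from -0.057 to 0.011 for *Ndufa4*, -0.14 to 0.42 for *Sdhb*, -0.57 to 2.32 for *Uqcr*, -0.70 to 0.030 for *Uqcrc1*, -0.0075 to 0.070 for *Uqcrh*, -1.43 to 0.49 for *Cox4i2*, -0.064 to 0.032 for *Cox5a*, -0.043 to 0.12 for *Cox8a* and -0.034 to 0.050 for *Atp5o*.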
